A study of Mus musculus with 4 samples.

Results

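Monocyte subset markers are the genes that tell classical from patrolling monocytes, and 10 of the 23763 genes in the deposited table were chosen by their mouse symbol: Ly6c2, Ccr2, Cd14, Cx3cr1, Adgre4, Fcgr4, Csf1r, Lyz2, Ms4a6c and Clec4a1. RNA came from whole spleen of C57BL/6J mice at baseline and was sequenced as directional libraries after depletion of ribosomal RNA. KLHL3 knock-in spleen (KLHL3-KI) and wild-type spleen (WT) had 2 libraries each. The sources used here do not give the knock-in allele, age, sex or number of animals, and no label says that the libraries are separate animals, so p-values measure only the spread between these libraries, which may be technical. The comparison asked how marker RNA in KLHL3-KI spleen differed from that in WT spleen.

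Monocytes are made in bone marrow, released into blood and also stored in the red pulp of the spleen. Classical monocytes carry much Ly6C and the chemokine receptor CCR2 and move into inflamed tissue. Patrolling monocytes carry little Ly6C and much CX3CR1, depend on the nuclear receptor NR4A1 and crawl along the inner wall of small vessels. Both carry the growth factor receptor CSF1R. The 10 markers were read in 3 groups by their role: Ly6c2, Ccr2 and Cd14 as classical, Cx3cr1, Adgre4 and Fcgr4 as patrolling, and Csf1r, Lyz2, Ms4a6c and Clec4a1 as shared by both or by other myeloid cells.

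The whole-series facts that touch these genes are few. The libraries held 8535483 to 10933023 whole reads, and each marker rested on 150 to 12307 reads per library. The red pulp macrophage factor Spic, a spleen marker, was present in all 4 libraries at 92.9 to 116 scaled read counts. A scaled read count is a number of reads divided by 1 factor per library. Klhl3 itself was at 2.53 and 1.36 in KLHL3-KI libraries and at 3.02 and 4.67 in WT libraries. It did not pass the test (limma's adjusted p = 0.0895), but passed as lower with equal total reads (0.0488), with haemoglobin, antibody and mitochondrial genes left out (0.0401) and without KLHL3-KI replicate 1 (0.0141), in 3 of 16 alternatives. Its level does not check a knock-in label. Of 16970 genes with a mean of at least 1, 2583 were higher and 1283 lower in KLHL3-KI spleen at a Benjamini-Hochberg adjusted p under 0.05. With equal total reads 1916 were higher and 3130 lower.

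All 3 classical markers rose in KLHL3-KI spleen, while the patrolling markers did not move together: Cx3cr1 fell, Fcgr4 rose and Adgre4 did not pass. None of the 4 shared markers passed. In all, 4 of the 10 markers were called higher, against 15.2% of all tested genes, and 1 was called lower, against 7.56%. The median log2 fold change was 0.81 for the classical, 0.13 for the patrolling and 0.07 for the shared markers, and -0.01 over all tested genes. All 10 markers passed the minimum level. Less RNA of a marker in whole spleen can reflect fewer cells of a type or less RNA per cell, and bulk samples cannot tell these apart. Both KLHL3-KI values lay above both WT values for 5 markers, as for 32.8% of tested genes, and below them for 1 marker, as for 31.9%.

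**Figure D1:**
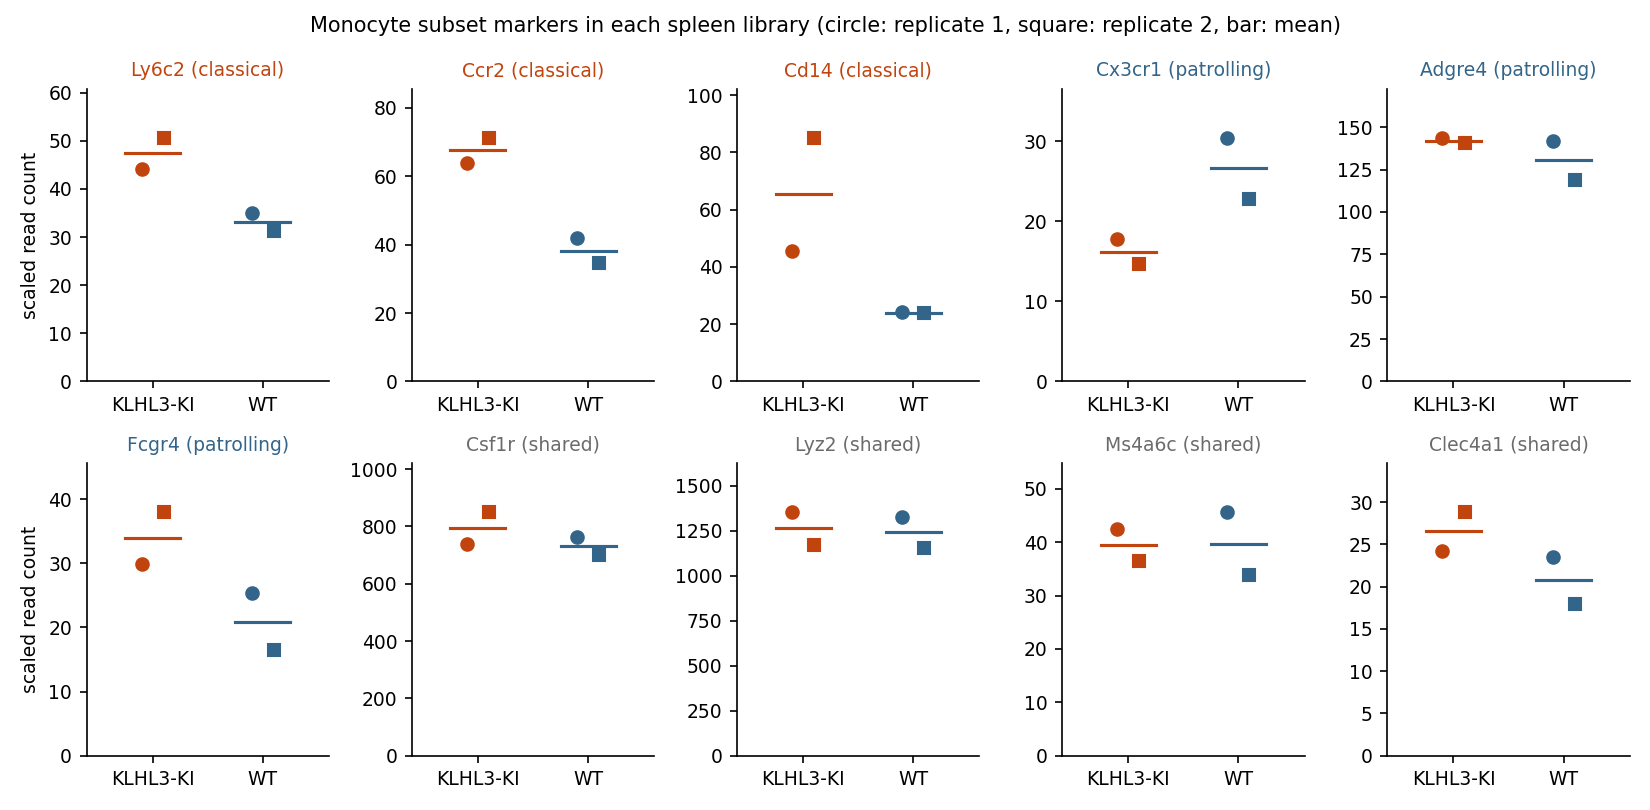
Scaled read count (y axis, from 0) of the 10 markers in the 2 KLHL3-KI and the 2 WT libraries; circles are replicate 1, squares replicate 2 and bars group means. Ly6c2, Ccr2, Cd14, Fcgr4 and Clec4a1 lie higher in both KLHL3-KI libraries, Cx3cr1 lies lower in both, and the other 4 genes overlap.

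Ccr2 (ENSMUSG00000049103, chromosome 9), the receptor that lets classical monocytes leave the marrow and follow CCL2, stood at 64.0 and 71.3 in KLHL3-KI libraries and at 42.0 and 34.6 in WT libraries. The groups did not overlap, and the gap was wider than the distance between libraries of either group. Its log2 fold change, on the log2(value + 1) scale used throughout, was 0.81 (SE 0.12, limma's adjusted p = 0.00138). The call held in all 17 alternatives tried, with an adjusted p from 2.66e-05 to 0.0283.

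Cd14 (ENSMUSG00000051439, chromosome 18), the co-receptor that hands lipopolysaccharide to TLR4, showed the largest difference of the 10 and the widest spread. KLHL3-KI libraries had 45.7 and 85.1, and WT libraries had 24.2 and 23.9. Both WT libraries were alike, whereas KLHL3-KI replicate 2 was far above KLHL3-KI replicate 1. The log2 fold change was 1.34 (SE 0.23, limma's adjusted p = 0.00280). It was 0.90 without KLHL3-KI replicate 2 and 1.78 without KLHL3-KI replicate 1, both still called. The call was lost without WT replicate 2 (limma's adjusted p = 0.0545) and with a robust variance model (0.0960), within a range of 3.49e-09 to 0.0960 over all alternatives. Neutrophils and macrophages also make Cd14.

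Ly6c2 (ENSMUSG00000022584, chromosome 15) encodes the surface antigen by which mouse classical monocytes are sorted. It stood at 44.2 and 50.6 in KLHL3-KI libraries and at 35.02 and 31.2 in WT libraries, with no overlap. The log2 fold change was 0.50 (SE 0.12, limma's adjusted p = 0.0144). It was the least stable of the classical calls: the adjusted p passed the threshold in 11 of 17 alternatives and ranged from 0.00399 to 0.135. The call was lost without WT replicate 1 (0.0509), WT replicate 2 (0.135) or KLHL3-KI replicate 2 (0.0699), and with equal total reads (0.0526), quantile normalization (0.0598) or no variance trend (0.0654).

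Reads of Ly6c2 are also uncertain because its relative Ly6c1, also on chromosome 15, has nearly the same coding sequence. Their open reading frames of 396 bases differed at 9 bases, an identity of 97.7%, with a longest identical run of 188 bases. The first 120 bases of each frame are shown because 6 of the 9 differences lie there. They are read from GENCODE M21 transcripts, with the differing bases in capitals.
Ly6c2: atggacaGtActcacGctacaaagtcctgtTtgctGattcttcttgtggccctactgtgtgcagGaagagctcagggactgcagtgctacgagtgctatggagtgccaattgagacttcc
Ly6c1: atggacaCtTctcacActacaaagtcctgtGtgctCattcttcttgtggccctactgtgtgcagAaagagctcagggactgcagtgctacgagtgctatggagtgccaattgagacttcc
Over all annotated transcripts, 13.9% of the distinct 50-base words of Ly6c2 also occur in Ly6c1. Those words number 2733 over 4 transcripts, whereas the longest coding transcript has 822 bases. The share within that transcript can be larger and was not computed. Ly6c1, which is known from endothelial cells and T cells, was at 27.3 and 20.0 in KLHL3-KI libraries and at 23.3 and 23.6 in WT libraries, and missed the threshold (log2 fold change -0.0031, SE 0.16, limma's adjusted p = 0.992). With the values of both genes summed, a choice made after seeing the data, the level was 71.5 and 70.6 in KLHL3-KI and 58.3 and 54.8 in WT libraries. The summed log2 fold change was 0.32 (SE 0.10, limma's adjusted p = 0.0399), against 0.50 for Ly6c2 alone.

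Cx3cr1 (ENSMUSG00000052336, chromosome 9) encodes the receptor for the membrane-bound chemokine CX3CL1 and was the only marker that fell. KLHL3-KI libraries had 17.7 and 14.6, against 30.4 and 22.8 in WT libraries. The groups did not overlap, although the WT libraries were further apart from each other than WT replicate 2 was from KLHL3-KI replicate 1. The log2 fold change was -0.68 (SE 0.17, limma's adjusted p = 0.0165). The call was lost without WT replicate 1 (adjusted p = 0.151) and in limma with no trend (0.0659), and the adjusted p ranged from 0.00198 to 0.151. Resident macrophages, dendritic cells and NK cells also carry Cx3cr1.

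Fcgr4 (ENSMUSG00000059089, chromosome 1), the activating Fc receptor that marks patrolling monocytes and binds IgG complexes, moved the other way. It was at 29.8 and 38.0 in KLHL3-KI libraries and at 25.3 and 16.5 in WT libraries, without overlap. The log2 fold change was 0.69 (SE 0.19, limma's adjusted p = 0.0305). The call was lost without WT replicate 2 (0.235, log2 fold change 0.40) or KLHL3-KI replicate 2 (0.0795), and with equal total reads (0.0631), quantile normalization (0.0741) or no variance trend (0.108). Over all alternatives the adjusted p ranged from 0.00198 to 0.235. Neutrophils and macrophages carry Fcgr4 as well.

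Adgre4 (ENSMUSG00000032915, chromosome 17), an adhesion G protein-coupled receptor of monocytes and macrophages, had the highest level per kilobase of the patrolling markers. Its values were 144 and 140 in KLHL3-KI libraries and 142 and 119 in WT libraries, and the groups overlapped. The log2 fold change of 0.13 (SE 0.11, limma's adjusted p = 0.424) passed in none of the 17 alternatives, and its sign turned with equal total reads (-0.040).

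**Figure D2:**
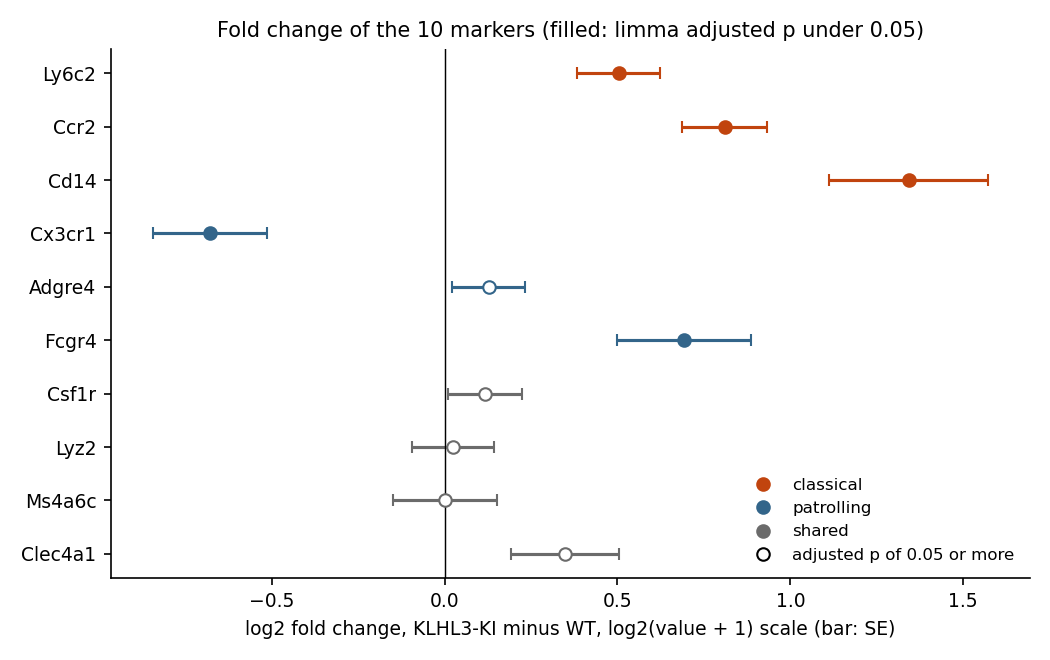
Log2 fold change of each marker, KLHL3-KI minus WT, on the x axis with bars of 1 standard error; colours give the role and filled points have an adjusted p by limma under 0.05. The classical markers lie between 0.50 and 1.34, the patrolling markers spread from -0.68 to 0.69, and the shared markers lie between 0.0015 and 0.35.

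No shared marker passed the test. Csf1r (ENSMUSG00000024621, chromosome 18), the receptor for CSF1 and IL-34, had 739 and 850 in KLHL3-KI libraries and 765 and 699 in WT libraries, with a log2 fold change of 0.12 (SE 0.11, limma's adjusted p = 0.473). Lyz2 (ENSMUSG00000069516, chromosome 10), the lysozyme of monocytes, macrophages and neutrophils, had 1355 and 1173 in KLHL3-KI libraries and 1329 and 1157 in WT libraries. Its difference, a log2 fold change of 0.02 (SE 0.12, limma's adjusted p = 0.906), was far within the distance between replicates.
Ms4a6c (ENSMUSG00000079419, chromosome 19), a tetraspan membrane protein of the MS4A family, had 42.4 and 36.5 in KLHL3-KI libraries and 45.6 and 33.8 in WT libraries. It gave a log2 fold change of 0.0015 (SE 0.15, limma's adjusted p = 0.996). For Csf1r, Lyz2 and Ms4a6c the groups overlapped, and the sign of the difference turned under other scalings. Clec4a1 (ENSMUSG00000049037, chromosome 6), a C-type lectin receptor of myeloid cells, was at 24.2 and 28.8 in KLHL3-KI libraries and at 23.5 and 17.96 in WT libraries. Its groups did not overlap, but the log2 fold change of 0.35 (SE 0.16) did not pass (limma's adjusted p = 0.146) and passed in 0 of 17 alternatives. Of the 50-base words of Lyz2, 15.4% also occur in Lyz1, and 5.85% of those of Ms4a6c occur in Ms4a6b. Lyz1 was at 14.0 and 12.1 in KLHL3-KI and at 15.7 and 18.5 in WT libraries.

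Per kilobase of the longest coding transcript, the order of levels was the same in both groups except that Cd14 ranked 5 in KLHL3-KI and 7 in WT, and Ms4a6c ranked 7 in KLHL3-KI and 5 in WT. Lyz2 led, at 961 ± 97.8 scaled reads per kilobase in KLHL3-KI and 944 ± 92.8 in WT (SD, n = 2 each). Csf1r followed at 169 ± 16.8 in KLHL3-KI and 156 ± 9.93 in WT, and Ly6c2 at 57.7 ± 5.57 in KLHL3-KI and 40.3 ± 3.25 in WT. The level of Cd14 was 39.9 ± 17.0 in KLHL3-KI, where its libraries spanned those of Adgre4, and 14.6 ± 0.126 in WT, where they lay within those of Clec4a1. At the low end, Ccr2 was at 11.8 ± 0.901 and Cx3cr1 at 3.60 ± 0.492 in KLHL3-KI spleen, with no overlap. In WT spleen Ccr2 was at 6.68 ± 0.912 and Cx3cr1 at 5.93 ± 1.195, and their libraries overlapped. WT libraries also overlapped between Ly6c2 and Adgre4, Ms4a6c and Fcgr4, Fcgr4 and Cd14, and Cd14 and Clec4a1, and KLHL3-KI libraries between Adgre4 and Cd14 and between Cd14 and Fcgr4.

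A ratio of 2 markers within a library does not depend on how that library was scaled. Ccr2 reads over Cx3cr1 reads came to 3.61 (95% exact counting interval 3.03 to 4.32) and 4.88 (4.09 to 5.86) in KLHL3-KI libraries. In WT libraries the ratio was 1.38 (1.18 to 1.62) and 1.51 (1.27 to 1.80). The Ly6c2 to Cx3cr1 ratio was 2.49 and 3.47 in KLHL3-KI and 1.15 and 1.37 in WT libraries. For Cd14 over Cx3cr1 it was 2.58 and 5.83 in KLHL3-KI and 0.794 and 1.05 in WT libraries. Over Cx3cr1, every classical marker was thus higher in both KLHL3-KI libraries, and the counting intervals of the groups did not meet. These intervals cover counting error only. The separation was not particular to classical markers. Adgre4, a patrolling marker, over Cx3cr1 was 8.11 and 9.61 in KLHL3-KI and 4.67 and 5.21 in WT libraries, and those intervals did not meet either.

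With Adgre4 below the line the separation was smaller. Ccr2 over Adgre4 was 0.445 and 0.508 in KLHL3-KI and 0.295 and 0.291 in WT libraries, and Ly6c2 over Adgre4 was 0.307 and 0.361 in KLHL3-KI and 0.246 and 0.263 in WT libraries. Against Fcgr4 it was gone for Ly6c2 and Ccr2: Ly6c2 over Fcgr4 was 1.48 and 1.33 in KLHL3-KI and 1.38 and 1.89 in WT libraries. Ccr2 over Fcgr4 was 2.14 and 1.88 in KLHL3-KI and 1.66 and 2.09 in WT libraries. Of the 9 pairs of a classical over a patrolling marker, 7 were higher in both KLHL3-KI libraries. The other 2, those of Ly6c2 and Ccr2 over Fcgr4, overlapped. These pairs reuse the same genes, so they are not separate observations, and no share over other gene pairs was computed. Cd14 over Adgre4 was 0.318 and 0.606 in KLHL3-KI and 0.170 and 0.201 in WT libraries. Cd14 over Fcgr4 was 1.53 and 2.24 in KLHL3-KI and 0.956 and 1.45 in WT libraries. Counting intervals of the groups met for Cd14 over Fcgr4 and for Ly6c2 over Adgre4, although the ratios did not overlap. Among the patrolling markers themselves, Fcgr4 over Cx3cr1 was 1.68 and 2.60 in KLHL3-KI and 0.831 and 0.723 in WT libraries.

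**Figure D3:**
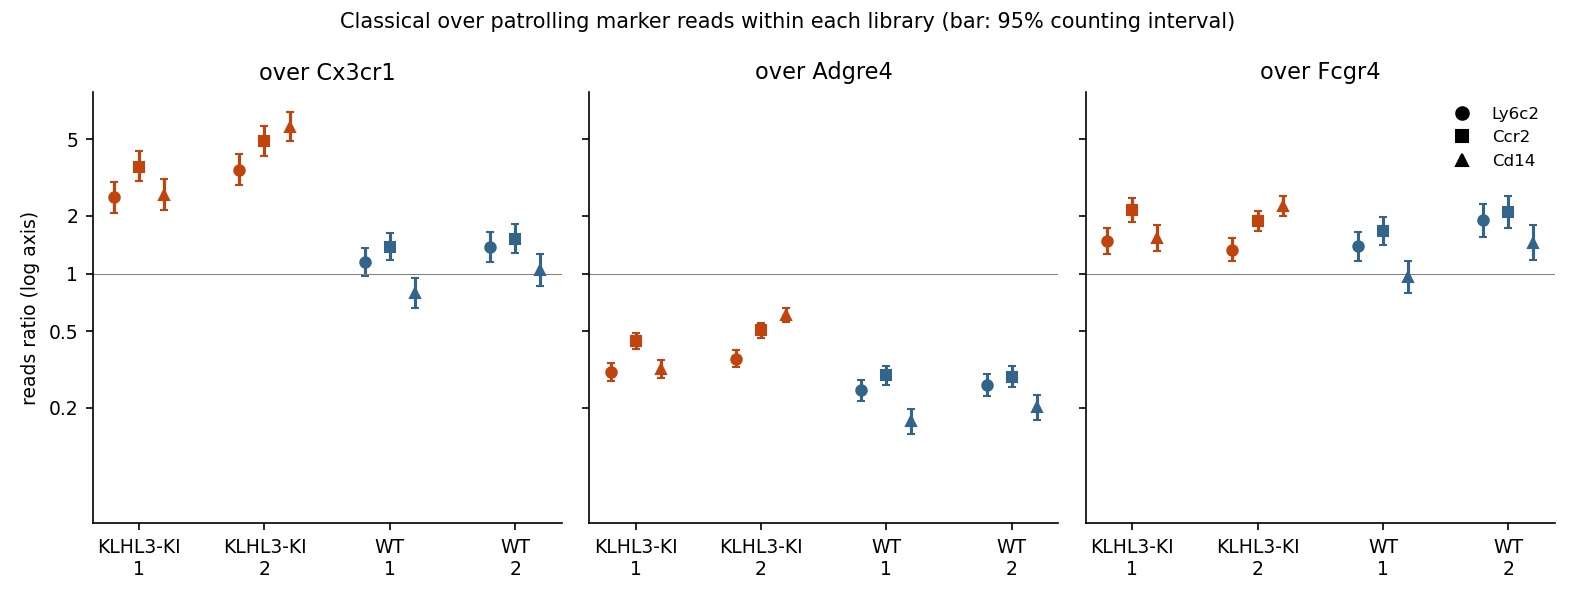
Reads of Ly6c2, Ccr2 and Cd14 divided by reads of Cx3cr1, Adgre4 or Fcgr4 (panels) in each library, on a log y axis; bars are 95% exact counting intervals. Ratios over Cx3cr1 lie between 2.49 and 5.83 in KLHL3-KI and between 0.794 and 1.51 in WT libraries, whereas ratios of Ly6c2 and Ccr2 over Fcgr4 overlap.

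The mean log2 level of the 3 classical markers minus that of the 3 patrolling markers was 0.24 and 0.63 in KLHL3-KI libraries and -0.53 and -0.27 in WT libraries. The difference between groups was 0.84 on the log2 scale, against a pooled SD of 0.24. It ran from 0.64 without KLHL3-KI replicate 2 to 1.04 without KLHL3-KI replicate 1, and from 0.76 to 0.86 under the other pseudocounts and scalings tried. No p is given for it, because the markers were chosen with results of these data known and because 3 genes of unequal behaviour make up the patrolling side.

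Because Ccr2 and Fcgr4 were higher and Cx3cr1 lower in KLHL3-KI spleen, the start regions of these 3 genes are shown. They run 250 bases before to 50 bases after the start site, as RefSeq gives them on build GRCm38.p6. Regions of 8 of the 10 markers were kept, and those of Cd14 and Csf1r are not reported here. Capitals mark motifs, searched on both strands.
Ccr2, chr9:124101933-124102232, plus strand: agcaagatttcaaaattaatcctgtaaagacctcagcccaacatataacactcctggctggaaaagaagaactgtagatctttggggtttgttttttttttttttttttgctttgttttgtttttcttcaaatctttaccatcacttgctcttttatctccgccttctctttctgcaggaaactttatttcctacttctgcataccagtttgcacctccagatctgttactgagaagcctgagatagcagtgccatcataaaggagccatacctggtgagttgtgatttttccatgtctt
Cx3cr1, chr9:120068247-120068546, minus strand: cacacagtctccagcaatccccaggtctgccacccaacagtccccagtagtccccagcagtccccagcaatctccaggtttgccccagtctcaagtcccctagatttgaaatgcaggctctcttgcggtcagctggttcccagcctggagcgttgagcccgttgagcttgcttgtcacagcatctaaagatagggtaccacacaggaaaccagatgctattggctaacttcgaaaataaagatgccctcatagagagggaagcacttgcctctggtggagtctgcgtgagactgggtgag
Fcgr4, chr1:171018676-171018975, plus strand: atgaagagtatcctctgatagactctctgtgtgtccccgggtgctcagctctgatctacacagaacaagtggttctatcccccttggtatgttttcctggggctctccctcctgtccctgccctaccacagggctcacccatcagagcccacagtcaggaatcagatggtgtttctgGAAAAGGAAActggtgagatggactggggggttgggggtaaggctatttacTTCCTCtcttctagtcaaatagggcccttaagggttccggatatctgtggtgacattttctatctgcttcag
The motifs were the PU.1 core GAGGAA, the C/EBP motif TTGCNNAA, the nuclear receptor motif AAGGTCA that NR4A1 can bind, the IRF motif (GAAA, any 2 bases, GAAA), the NFkB motif (GGGA, any 2 bases, TTCC) and the AP-1 motif TGANTCA. The Fcgr4 region held an IRF match that begins at -73 and a PU.1 match that begins at -22 from the start site, which do not overlap. The Ccr2 and Cx3cr1 regions held none of the 6 motifs. Of the marker regions searched but not shown, those of Ly6c2, Adgre4 and Clec4a1 also held a PU.1 match. Adgre4 held a C/EBP match too, and the Lyz2 and Ms4a6c regions held none of the motifs. Among 32851 regions of this length, 28.3% held the PU.1 core, 10.8% the C/EBP motif, 4.72% the nuclear receptor motif, 3.44% the IRF motif, 1.47% the NFkB motif and 7.81% the AP-1 motif. A match is a description of letters, not a site in use.

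Other genes of the same pathways were read from lists, against 15.2% higher, 7.56% lower and a median of -0.01 over all tested genes. Of 20 further classical monocyte genes, 13 rose and 1 fell, with a median log2 fold change of 1.09. All 14 neutrophil genes rose too, with a median of 3.13, and the part of neutrophils in these rises was not tested. Vcan, a matrix proteoglycan of monocytes, was at 23.9 and 30.3 in KLHL3-KI libraries and at 3.47 and 3.94 in WT libraries, a log2 fold change of 2.57 (SE 0.17). Hp, encoding haptoglobin, rose by 2.52 (SE 0.20) and F13a1, a clotting factor of monocytes and megakaryocytes, by 1.68 (SE 0.13), and these 3 calls held in 17 of 17 alternatives. Of the list, 11 to 14 genes rose when 1 library was left out, and none fell without WT replicate 1 while 2 fell without KLHL3-KI replicate 1.

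Of 20 further patrolling monocyte genes, 2 rose and 5 fell. Rises were no more frequent than over all tested genes (15.2%), whereas falls were more frequent (7.56% over all tested genes). The median was -0.10, and it was -0.011 without WT replicate 1, -0.19 without WT replicate 2 and -0.27 with equal total reads. Ace, the angiotensin-converting enzyme, was at 16.7 and 17.2 in KLHL3-KI libraries and at 27.9 and 32.1 in WT libraries (log2 fold change -0.78, SE 0.13, limma's adjusted p = 0.00227). Klf2, a quiescence factor that lymphocytes also express, fell by 0.70 (SE 0.09) and held in 17 of 17 alternatives, as did Ace. Itgal, the LFA-1 subunit with which patrolling monocytes crawl and which lymphocytes share, fell by 0.39 (SE 0.09, limma's adjusted p = 0.0120). It was not called without WT replicate 1, WT replicate 2 or KLHL3-KI replicate 2 (0.0831, 0.0813 and 0.0640). The rises were in Pglyrp1, a peptidoglycan-binding protein of granulocytes too, at 0.87 (SE 0.18, limma's adjusted p = 0.00738), lost without WT replicate 2 (0.0942), and in Ear2, a ribonuclease of eosinophils too. Ear2 rose by 0.58 (SE 0.15, limma's adjusted p = 0.0205), which was lost without WT replicate 1, WT replicate 2 or KLHL3-KI replicate 2 (0.106, 0.130 and 0.137). The list had 1 rise without WT replicate 1, 0 rises without WT replicate 2 and 3 falls without WT replicate 1, WT replicate 2 or KLHL3-KI replicate 2. With equal total reads 1 rose and 9 fell.

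**Figure D4:**
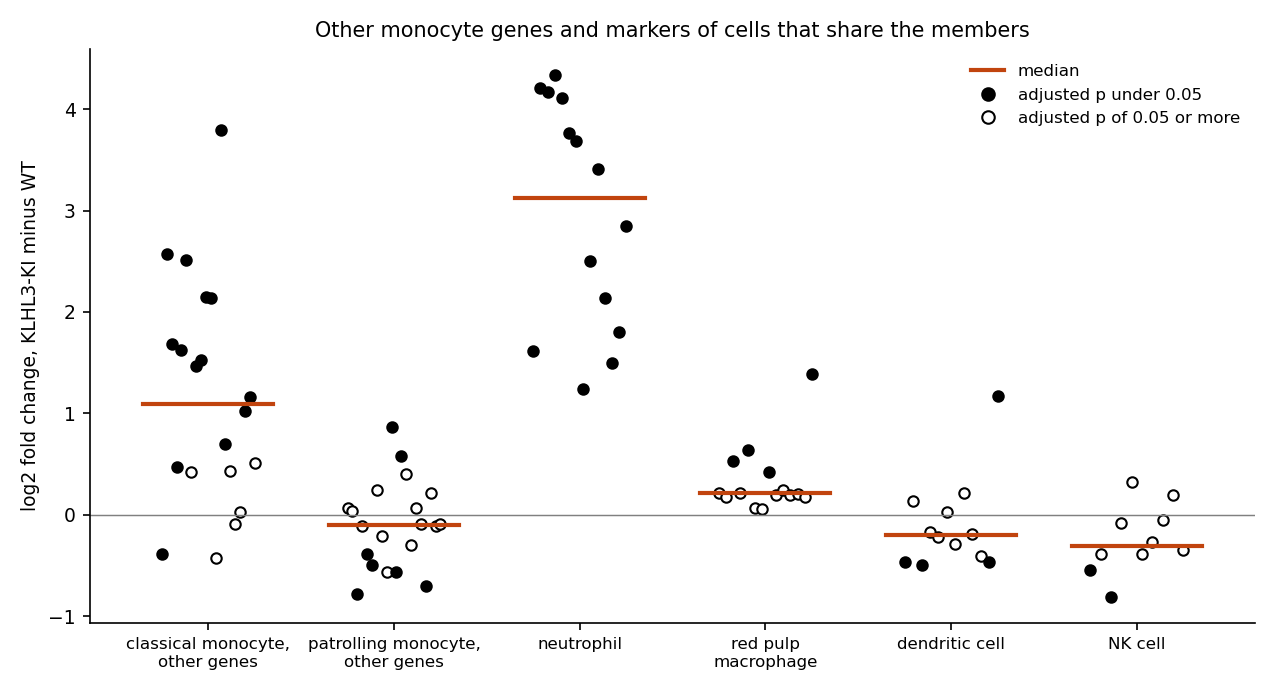
Log2 fold change, KLHL3-KI minus WT (y axis), of further classical and patrolling monocyte genes and of markers of cells that share the 10 genes; filled points have an adjusted p by limma under 0.05 and bars are medians. The medians are 1.09 for classical, -0.10 for patrolling, 3.13 for neutrophil, 0.21 for red pulp macrophage genes, -0.20 for those of dendritic cells and -0.31 for those of NK cells.

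Among 15 monocyte transcription factors, 1 rose and 5 fell, against 15.2% and 7.56% of all tested genes, with a median of -0.28 that was -0.45 with equal total reads. Nr4a1, on which patrolling monocytes depend, was at 33.9 and 27.6 in KLHL3-KI and 27.9 and 30.6 in WT libraries. It missed the threshold (log2 fold change 0.06, SE 0.13, limma's adjusted p = 0.766) and is also among the further patrolling genes. Cebpb, also needed by patrolling monocytes and active in granulocytes, was at 17.95 and 23.0 in KLHL3-KI and 9.62 and 10.8 in WT libraries and rose by 0.93 (SE 0.16, limma's adjusted p = 0.00301). Irf8, which directs monocyte and dendritic cell fate and is also a B cell factor, fell by 0.45 (SE 0.09, limma's adjusted p = 0.00764) and was not called without WT replicate 2 (0.0896). Spi1, the gene for PU.1, had 57.2 and 57.5 in KLHL3-KI and 54.8 and 56.2 in WT libraries (log2 fold change 0.046, limma's adjusted p = 0.770). Klf4, a factor of classical monocytes, did not pass either (-0.14, limma's adjusted p = 0.566). Mef2c, better known from B cells, fell by 0.52 (SE 0.09, limma's adjusted p = 0.00334). Without WT replicate 2 the list had 3 falls, without KLHL3-KI replicate 2 it had 2 rises, and with equal total reads 1 rose and 8 fell.

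For the ligands of the receptors, the data gave few calls. Csf1 had 97.0 and 92.0 in KLHL3-KI and 90.1 and 96.6 in WT libraries, a log2 fold change of 0.02 (SE 0.09, limma's adjusted p = 0.914). Il34 (0.25, SE 0.15) and Cx3cl1 (0.26, SE 0.27) did not pass (limma's adjusted p = 0.278 and 0.528). Ccl2, the main ligand of CCR2, was near the limit of detection at 2.09 and 1.66 in KLHL3-KI and 0.783 and 0.208 in WT libraries. It rose by 0.97 (SE 0.28, limma's adjusted p = 0.0362) and was not called without WT replicate 1 (0.0509), WT replicate 2 (0.229) or KLHL3-KI replicate 1 (0.0775), and its fold change ran from 0.32 to 1.91 over 15 alternatives.
Of the signalling partners, Fcer1g, the chain that carries Fcgr4 to the surface, did not pass (0.34, SE 0.11, limma's adjusted p = 0.0599), and passed with a robust variance model (0.0427). The CD14 partners Tlr4 (0.11, limma's adjusted p = 0.547) and Ly96 (-0.10, limma's adjusted p = 0.743) did not pass. Lbp, which loads lipopolysaccharide onto CD14, rose by 0.84 (SE 0.22, limma's adjusted p = 0.0238), lost without WT replicate 1 (0.150) and with DESeq2 (0.125). The signalling genes Syk and Ptpn6, shared with B cells, fell by 0.39 and 0.43 (limma's adjusted p = 0.0145 and 0.0143). Both were lost without WT replicate 1 (0.0723 and 0.102), WT replicate 2 (0.102 and 0.0950) or KLHL3-KI replicate 2 (0.0905 and 0.0935). In all 2 of 13 tested partners rose and 2 fell, with rises near the 15.2% of all tested genes (7.56% fell). Their median was 0.11, and it was -0.057 with equal total reads, 0.069 without WT replicate 2, 0.22 without WT replicate 1, 0.17 without KLHL3-KI replicate 2 and 0.011 without KLHL3-KI replicate 1. None fell without WT replicate 1, WT replicate 2 or KLHL3-KI replicate 2, and 1 rose without WT replicate 1, WT replicate 2 or KLHL3-KI replicate 1. Ccl7 is not analysed here.

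Within the families of the markers, members differed from each other. Among Fc receptors, Fcgr3 was at 81.1 and 94.3 in KLHL3-KI and 60.3 and 48.6 in WT libraries and rose by 0.68 (SE 0.13, limma's adjusted p = 0.00459; 0.0677 without WT replicate 2). The high-affinity receptor Fcgr1 did not pass (0.44, SE 0.20, limma's adjusted p = 0.155), nor did the inhibitory Fcgr2b (-0.21, SE 0.10, limma's adjusted p = 0.149). Fcgr2b passed as lower with equal total reads (0.0171), quantile normalization (0.0373) and with haemoglobin, antibody and mitochondrial genes left out (0.0181). Adgre1, the macrophage relative of Adgre4, did not pass (0.18, SE 0.09, limma's adjusted p = 0.192). Clec4a2 rose by 0.57 (SE 0.18, limma's adjusted p = 0.0459), passed in 8 of 17 alternatives and was not called without WT replicate 2 (0.295) or KLHL3-KI replicate 1 (0.0967), and Clec4a3 did not pass (0.08, SE 0.13).
Ms4a6b, a relative of Ms4a6c known from T cells, fell by 0.51 (SE 0.13, limma's adjusted p = 0.0186; 0.148 without WT replicate 1). Ms4a6d did not pass (0.45, SE 0.32, limma's adjusted p = 0.340), although it passed without WT replicate 1 (0.0369). Lyz1 did not pass (-0.36, SE 0.15, limma's adjusted p = 0.120), and passed as lower with equal total reads (0.0345) and with haemoglobin, antibody and mitochondrial genes left out (0.0328). Rises among the 38 tested relatives included Csf3r, the receptor of granulocyte growth factor, by 1.496, and the lectin Clec4e, by 2.13. Ms4a3, of granulocyte and monocyte precursors, was at 5.62 and 6.91 in KLHL3-KI and at 0.448 and 0.104 in WT libraries, and its fold change of 2.52 ran from 1.09 to 4.53 over 16 alternatives. Falls included the lymphocyte genes Ms4a4b, by 0.71, and Ccr7, by 0.52, of which Ccr7 was not called without WT replicate 1 (0.0698). Of the 40 listed relatives, 5 are also in the neutrophil or progenitor lists, and Clec4e and Fcgr1 are also among the further classical genes. Of the relatives 9 rose and 6 fell, against 15.2% and 7.56% of all tested genes. Their median of 0.05 was -0.12 with equal total reads, and ran from -0.048 without WT replicate 2 to 0.17 without WT replicate 1, with 0.015 without KLHL3-KI replicate 1 and 0.088 without KLHL3-KI replicate 2. Without WT replicate 1 only 1 fell, without KLHL3-KI replicate 2 only 3 fell, and with equal total reads 7 rose and 12 fell.

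Markers of other cells were counted in the same way, against 15.2% higher and 7.56% lower over all tested genes. All 14 neutrophil genes rose, with a summed level of 1538 and 2063 in KLHL3-KI and 212 and 123 in WT libraries. With a robust variance model 10 of the 14 were called. Of 11 myeloid progenitor genes 6 rose and 1 fell, with sums of 294 and 392 in KLHL3-KI and 169 and 147 in WT libraries. Among 14 red pulp macrophage genes 4 rose, with sums of 4340 and 4626 in KLHL3-KI and 3795 and 3404 in WT libraries. Of 12 dendritic cell genes 1 rose and 3 fell, with sums of 435 and 432 in KLHL3-KI and 532 and 491 in WT libraries. Of 10 NK cell genes 2 fell, with sums of 82.6 and 67.0 in KLHL3-KI and 91.0 and 99.8 in WT libraries.
All 11 T cell genes fell, with sums of 347 and 307 in KLHL3-KI and 603 and 525 in WT libraries, and 9 of 10 B cell genes fell, with sums of 2648 and 2003 in KLHL3-KI and 3459 and 3604 in WT libraries. The marginal zone macrophage list had 1 rise among 6, the plasma cell list 1 fall among 8, and all 12 erythroid genes rose. The falls rested in part on the WT libraries: without WT replicate 1, 6 T cell, 5 B cell, 1 dendritic cell and 0 NK cell genes fell, and without WT replicate 2, 2 B cell and 0 NK cell genes fell and 1 red pulp macrophage gene rose. Without KLHL3-KI replicate 2, 1 dendritic cell and 1 NK cell gene fell, and without KLHL3-KI replicate 1, 2 dendritic cell and 2 marginal zone macrophage genes rose. The single fall among progenitor genes was lost without WT replicate 1 or KLHL3-KI replicate 2. Without WT replicate 1 or WT replicate 2 no plasma cell gene fell, and without KLHL3-KI replicate 1, 1 rose and 2 fell. All neutrophil and erythroid rises were called without any 1 library. In each cell type list every marker was above 0 in every library. The part of these cells in the rise of Cd14, Fcgr4 and the further classical genes, and in the fall of Cx3cr1, was not tested.

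The sign of Adgre4, Csf1r, Lyz2 and Ms4a6c, which did not pass, turned with the scaling, and that of the other 6 markers did not. Equal total reads shifted the median of all genes to -0.16, and scaling without haemoglobin, antibody and mitochondrial genes to -0.14. Relative to that median with equal total reads, the log2 fold change was 0.81 for Ccr2, 1.34 for Cd14, 0.50 for Ly6c2, 0.69 for Fcgr4 and -0.68 for Cx3cr1. In the deposited scaling the same relative values were 0.82, 1.35, 0.51, 0.70 and -0.67. With equal total reads 2 markers, Ccr2 and Cd14, passed as higher and 1, Cx3cr1, as lower.

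**Figure D5:**
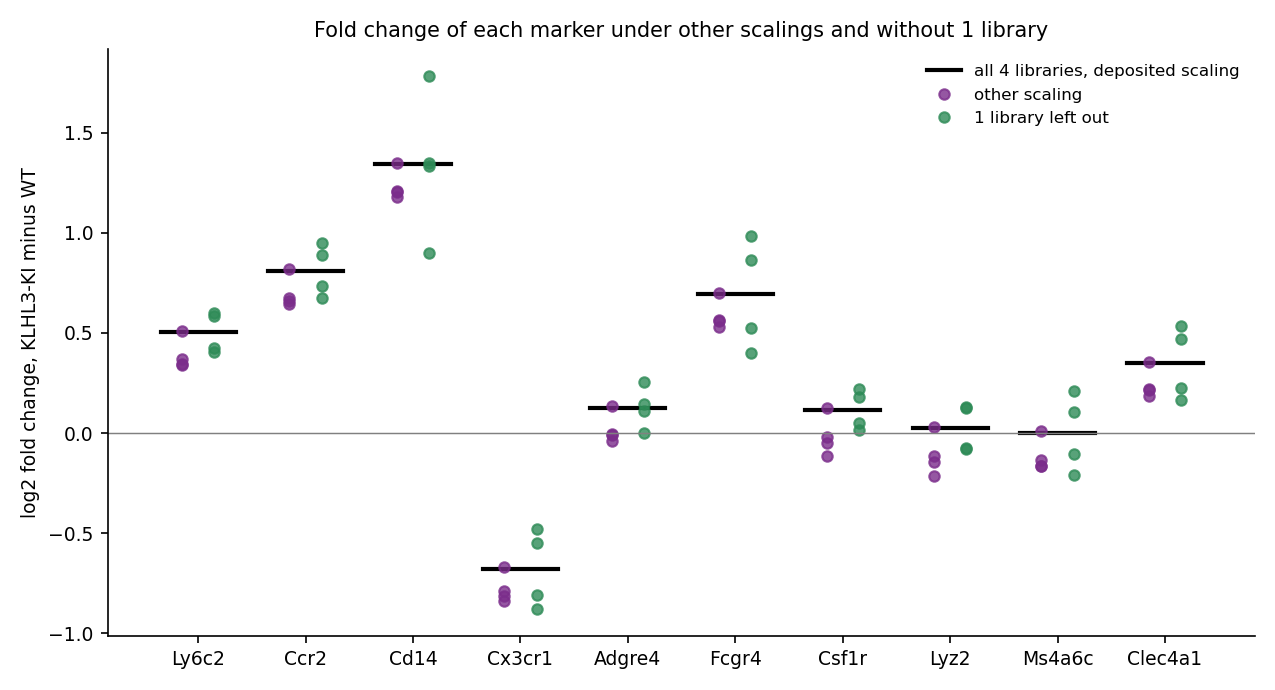
Log2 fold change, KLHL3-KI minus WT (y axis), of each marker with all 4 libraries and the deposited scaling (bars), under 4 other scalings and without each library. Ccr2, Cd14, Ly6c2, Fcgr4 and Clec4a1 stay above 0 and Cx3cr1 below 0 in every setting drawn, while Csf1r, Lyz2, Ms4a6c and Adgre4 lie on both sides of 0.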

How the data were processed

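Spleen RNA of 2 KLHL3-KI and 2 WT samples was analysed from 1 deposited table of 23763 genes. Groups and replicate numbers came from the titles, and columns were matched by library name. Replicates 1 and 2 are KI_Sp_1 and KI_Sp_3 in KLHL3-KI and WT_Sp_2 and WT_Sp_3 in WT, so title and library numbers partly differ. Per the submitters' processing notes, Trimmomatic 0.38, Bowtie2, RSEM 1.3.0, edgeR and build GRCm39 were used; the sources used here do not give their roles, the annotation or filters. The values deposited by the authors are a normalized signal: read counts divided by 1 factor per library. All values (100%) were whole multiples of the smallest value of their library within 0.001 of a read, and 1 read was worth 0.110 and 0.0974 in KLHL3-KI and 0.112 and 0.104 in WT libraries. Of the Ensembl identifiers 99.3% matched a symbol (GENCODE M21, build GRCm38), and no gene coordinates of the files' build are given.

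The 16970 genes whose mean value reached 1 were compared on the log2(value + 1) scale, with a pseudocount of 1, using limma 3.58.1 in R 4.3.3 with a variance trend, two-sided, with Benjamini-Hochberg adjustment over all tested genes and a threshold of 0.05. Alternatives used edgeR 4.0.16 and DESeq2 1.42.0 on the recovered reads, other pseudocounts (0.1 and 5), filters (none, or a mean of at least 5), scalings, variance models, a replicate block and each library left out. An exact permutation of 2 against 2 libraries cannot reach 0.05. The 10 markers and all lists were chosen with earlier results of these data known. Named genes were the markers, a set of ligands, partners and relatives, and up to 3 genes of lowest p per direction in each monocyte list; other cell type lists are given as counts and sums. Some genes that this rule takes in are not reported here.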

Additional observations from a re-analysis of the deposited data

How the results depend on the processing

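Genes lower in KLHL3-KI numbered 3130 with equal total reads, 2968 with haemoglobin, immunoglobulin and mitochondrial genes removed, 2372 after quantile normalization, 781 with DESeq2 and 659 without a variance trend, against 1283 as reported. Without 1 library the higher genes ranged from 1386 to 2903 and the lower ones from 267 to 1627. Of the 10 markers, 2 were higher with equal total reads, after quantile normalization and without a trend, and 0 were lower without a trend. Without 1 library 1 to 4 were higher (1 without WT replicate 2) and 0 to 1 lower (0 without WT replicate 1). The cause was not tested.

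Signs turned only for genes that did not pass. With equal total reads the log2 fold change was -0.040 for Adgre4, -0.052 for Csf1r, -0.14 for Lyz2, -0.16 for Ms4a6c, -0.15 for Csf1, -0.099 for Nr4a1, -0.12 for Spi1, -0.057 for Tlr4 and -0.084 for Clec4a3. With haemoglobin, immunoglobulin and mitochondrial genes removed these were -0.010, -0.022, -0.11, -0.13, -0.12, -0.070, -0.091, -0.027 and -0.056. After quantile normalization they were -0.0047, -0.11, -0.22, -0.16, -0.12, -0.070, -0.11, -0.044 and -0.046. Ms4a6c was at -0.023 with edgeR and -0.016 with DESeq2, and Ly6c1 at 0.0050 with median-ratio rescaling and 0.0054 with DESeq2. Without 1 library the ranges were -0.080 to 0.13 for Lyz2, -0.21 to 0.21 for Ms4a6c, -0.032 to 0.069 for Csf1, -0.064 to 0.58 for Cx3cl1, -0.081 to 0.21 for Nr4a1, -0.28 to 0.0061 for Klf4, -0.0028 to 0.22 for Tlr4, -0.22 to 0.21 for Ly6c1, -0.0015 to 0.15 for Clec4a3 and -0.11 to 1.01 for Ms4a6d.

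The replicate numbers share a label, not a known source: the deviations of libraries with the same number correlated at -0.032 over genes. With the replicate block 2715 genes were higher and 1415 lower, 4 markers were higher and 1 lower, and Ccr2 gave an adjusted p of 0.000243. Depth limits genes that rest on few reads, among them Ccl2, Cx3cl1, Klhl3 and Ms4a3. Ms4a3 had 4 and 1 reads in the WT libraries.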
